A study of Mus musculus with 8 samples.

Results

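Potassium channel subunit genes were followed in the prefrontal cortex (PFC) of mice that overexpressed the ubiquitin ligase gene *Rnf146*. Members were all genes of the deposited table whose symbol consists of Kcn, 1 or more lower-case letters and a closing number, which gave 70 of 15039 genes. The GENCODE vM39 annotation holds 93 protein-coding genes with such a symbol, and the other 23, among them *Kcnq1*, *Kcnj13*, *Kcnj5* and all genes of the *Kcne* subfamily, had no row in the table. How low a gene had to be to be left out of the table is not given in the sources used here.

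RNA sequencing covered 8 libraries, of which 4 came from Rnf146-overexpressing and 4 from eGFP-overexpressing mice. All were wild-type male C57BL/6N mice (C57BL/6NCrljOri), injected in both hemispheres of the PFC at the age of 6 weeks with an AAV under the neuronal synapsin promoter, which carried either mouse Rnf146 with eGFP or eGFP alone. The PFC was dissected 4 weeks later and total RNA of the whole tissue was sequenced, so cells without the virus and glial cells contribute to every value. The study describes the Rnf146 mice used for sequencing as ones already checked for overexpression and for impaired social behaviour, so that group may be a selection of the injected mice. The values are on a log2 scale, and the sum of the eGFP and the Rnf146 value of same-numbered libraries was equal in all 4 pairs of each gene, so every gene carries its mean and 4 differences, Rnf146 minus eGFP, which are called pair differences here. In such values the groups do not overlap only when all 4 pair differences have the same sign.

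Potassium channels let potassium leave the cell and so set the resting potential, shape the action potential and limit how often a neuron fires. A channel is built from pore-forming subunits, which may be opened by voltage (Kcna, Kcnb, Kcnc, Kcnd, Kcnh and Kcnq), rectify inward current (Kcnj), leak at rest (the tandem-pore Kcnk subunits) or respond to calcium or sodium inside the cell (Kcnma, Kcnn, Kcnt). Electrically silent subunits (Kcnf, Kcng, Kcns, Kcnv) join pores of the Kcnb subfamily and modify them, and auxiliary subunits (Kcnab, Kcnip, Kcnmb) change gating and surface expression without a pore of their own.

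The division into pore-forming and auxiliary subunits is reflected in the coding sequence, though not without exception. The pore signature was searched in the coding sequence of the canonical transcript of each gene, in frame and on the coding strand only, as 4 codons in a row, NTN, GGN, TAN or TTN, and GGN, where N is any base. The form with TAN was found in 1.66% and that with TTN in 3.90% of 21770 mouse coding sequences. Among the members, each of the 26 voltage-gated pore subunits, the 9 silent subunits, the 10 inward rectifiers and the 7 calcium-, sodium- or pH-regulated pore subunits held exactly 1 match, and 6 of the 9 tandem-pore subunits held 2. The 9 auxiliary subunits (7 of voltage-gated channels and 2 of the calcium-activated BK channel) and the tandem-pore gene *Kcnk1* held 0. The stretch around the match is printed for the 3 members that passed the test as lower in Rnf146-overexpressing mice. It is also printed for *Kcna4*, the member with the largest mean difference, and for the second match of the tandem-pore gene *Kcnk13*. Capitals mark the 12 matched bases, with 15 bases on each side, 5′ to 3′ on the coding strand of GENCODE vM39 (GRCm39).
Kcnj9: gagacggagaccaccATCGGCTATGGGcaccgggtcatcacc
Kcnh3: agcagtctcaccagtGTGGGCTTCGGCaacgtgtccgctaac
Kcnf1: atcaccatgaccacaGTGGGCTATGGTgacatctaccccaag
Kcna4: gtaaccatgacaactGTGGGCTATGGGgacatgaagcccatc
Kcnk13: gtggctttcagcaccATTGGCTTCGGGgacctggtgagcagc

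These stretches lie in exon 3 of 4 of *Kcnj9* (chr1:172153736-172153777, minus strand), exon 8 of 15 of *Kcnh3* (chr15:99130798-99130839, plus strand) and the only exon of *Kcnf1* (chr12:17225047-17225088, minus strand). That of *Kcna4* lies in exon 2 of 2 (chr2:107126828-107126869, plus strand), and that of *Kcnk13* in exon 3 of 3 (chr12:100027623-100027664, plus strand). *Kcnh3* and *Kcnk13* held the form with TTN, the other 3 that with TAN. The fourth gene that passed the test, *Kcnip2* (chromosome 19, 45780278 to 45804836, minus strand), encodes an auxiliary subunit and held no match.

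*Rnf146* itself was higher in all 4 pairs, by 2.64 ± 0.13 (SD, n = 4 pairs; adjusted p = 3.2e-07). This p is from limma, fitted on the whole table with the replicate number as a blocking term and adjusted over all 15039 genes with the Benjamini-Hochberg method. Genes are called here where the adjusted p was at most 0.1, the threshold of the study. Markers of neighbouring tissue and of other cell types also differed between the groups. All 6 septal and basal forebrain markers with values (of 9 listed) were called higher, with a list mean of 0.56 ± 0.14 (SD, n = 4 pairs). The striatal list, with 12 of 12 genes measured, averaged -0.11, 1.27, 0.66 and 0.28 in pairs 1 to 4, and the oligodendrocyte list, with 10 of 10, averaged -0.14, 0.48, 0.96 and 0.56. In each of these 2 lists 0 genes were called, while 11 striatal and 10 oligodendrocyte genes had an unadjusted p under 0.05 in limma. Excitatory neuron markers averaged -0.21 ± 0.19 over 7 of 7 genes, with 1 called, and microglial markers -0.17 ± 0.08 over 8 of 8 genes, with 1 called. Astrocyte and vascular markers averaged -0.02 ± 0.06 and 0.02 ± 0.05, with 0 of 8 and 0 of 8 genes called. Of the 8 interneuron markers, *Gad1*, *Gad2* and *Slc32a1*, genes of GABA synthesis and vesicular loading that striatal and septal neurons also express, were called higher by 0.45, 0.64 and 0.53, while the other 5 had means below 0, so the list had a mean of 0.13 ± 0.08 and a median of -0.04. Both ependymal markers with values (of 7 listed) were called higher, with a mean of 0.33 ± 0.11. The choroid plexus list had 2 of 5 genes measured, of which *Clic6* was called higher by 0.54, while *Kl* had a mean of -0.04 and was not called. In tissue RNA, fewer cells of a type and less RNA per cell cannot be told apart.

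Of the 70 potassium channel genes, 4 were called. *Kcnj9*, *Kcnh3* and *Kcnf1* were lower and *Kcnip2* was higher in Rnf146-overexpressing mice. The 4 genes are 5.71% of the members, where 1.25% of all genes were called, 0.818% as higher and 0.432% as lower. At an unadjusted p under 0.05 stood 19 members (27.1%), 9 higher and 10 lower, against 12.4% of all genes. The same direction in all 4 pairs was seen in 18 members (25.7%), 7 higher and 11 lower, where 20.6% of all genes showed it, 10.4% as higher and 10.2% as lower. The median of the 70 mean differences was -0.02, beside 0.00 over all genes, and 30 members lay above and 40 below 0. At a stricter adjusted p of 0.05, limma called 0 members and 0.532% of all genes. Without the replicate block 24 members and 21.5% of all genes were called, but that test counts 8 centred values as independent. The same 4 members were called after median centring, without the tenth of genes with the lowest means, and with untrended or robust variances, settings that called 1.34%, 1.32%, 1.18% and 1.25% of the genes tested. After quantile normalization 3 members and 1.15% of all genes were called. The number of calls changed when 1 pair was left out, which leaves 3 pairs in place of 4 for every gene. Without pair 1, 6 members (2.80% of all genes) were called, and without pair 2, 0 members (0.279%). Without pair 3, 1 member (1.12%) was called, and without pair 4, 0 members (0.0931%). In limma without pairs 2 and 4, 14 and 11 members had an unadjusted p under 0.05.

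**Figure D1:**
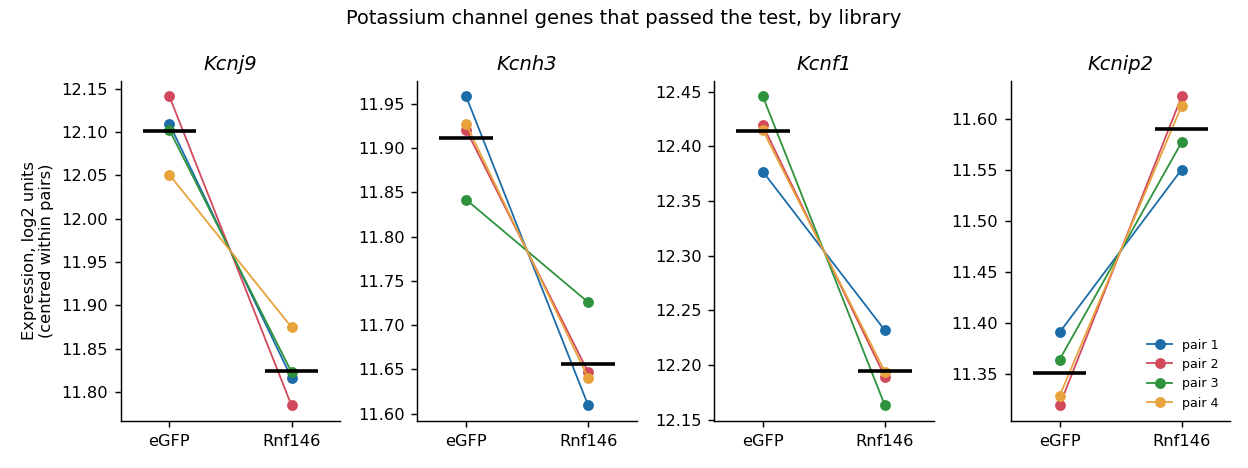
Expression in log2 units, centred within pairs, of the 4 potassium channel genes that passed the test, with 1 point per library, lines joining the libraries of a pair and black bars for the mean of 4 libraries; each panel has its own axis, which does not start at 0. In each panel the eGFP and Rnf146 libraries do not overlap, *Kcnj9*, *Kcnh3* and *Kcnf1* being lower and *Kcnip2* higher in the Rnf146 libraries.

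*Kcnj9* encodes an inward rectifier subunit that is opened by G proteins, downstream of receptors such as those for GABA, serotonin and acetylcholine. Its value was 12.11, 12.14, 12.10 and 12.05 in the eGFP libraries and 11.82, 11.78, 11.82 and 11.87 in the Rnf146 libraries. Every Rnf146 library lay below every eGFP library, and pair 4 had the smallest difference. The mean difference was -0.28 ± 0.07 (SD, n = 4 pairs; 95% interval -0.38 to -0.17), with an adjusted p of 0.0546 from limma. With 1 pair left out it stayed between -0.31 and -0.25, and the adjusted p was 0.0578 without pair 1 and 0.264, 0.119 and 0.192 without pairs 2, 3 and 4, so that the call held only without pair 1. *Igsf8* overlaps *Kcnj9* (chromosome 1, 172144668 to 172163568) on the other strand and had a difference of -0.11 ± 0.09 (adjusted p = 0.427, limma). The library kit keeps the strand, but whether the quantification used it is not given in the sources used here.

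The partners with which *Kcnj9* assembles had smaller mean differences. *Kcnj3*, the subunit shared by most G protein-gated channels of the brain, had pair differences of 0.13, -0.04, 0.07 and 0.05, with a 95% interval of -0.06 to 0.16. *Kcnj6*, which can also form channels on its own, was lower in all 4 pairs by 0.04 to 0.15 in size, with a mean of -0.09 ± 0.05 (adjusted p = 0.499, limma). Neither passed the test, and the difference between *Kcnj9* and its partners was not tested.

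*Kcnh3* encodes a voltage-gated pore subunit of the ether-à-go-go group, found mainly in the forebrain. Its value was 11.96, 11.92, 11.84 and 11.93 in the eGFP libraries and 11.61, 11.65, 11.73 and 11.64 in the Rnf146 libraries. The groups did not overlap, and pair 3 showed the smallest difference, -0.12 against -0.27 to -0.35 in the other 3 pairs. The mean difference of *Kcnh3* was -0.26 ± 0.10 (SD, n = 4 pairs; 95% interval -0.37 to -0.14; adjusted p = 0.0821, limma). The adjusted p was 0.0708 without pair 3 and 0.104, 0.327 and 0.357 without pairs 1, 2 and 4. Excitatory neuron markers also lay nearest to 0 in pair 3, at 0.05, and at -0.35, -0.37 and -0.16 in pairs 1, 2 and 4, and their part in the result was not tested. *Mcrs1*, on the other strand of the same stretch of chromosome 15 (99122225 to 99140710), had a difference of 0.01 ± 0.06.

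*Kcnf1* encodes a silent subunit that yields no current alone and alters channels of the Kcnb subfamily. It stood at 12.38, 12.42, 12.45 and 12.41 in the eGFP libraries and at 12.23, 12.19, 12.16 and 12.19 in the Rnf146 libraries. The libraries of the 2 groups did not overlap, and the spread between pairs was the smallest among the 4 called genes. The mean difference was -0.22 ± 0.06 (SD, n = 4 pairs; 95% interval -0.32 to -0.12; adjusted p = 0.0915, limma). The call was lost under quantile normalization (adjusted p = 0.105) and without pairs 2, 3 or 4 (0.344, 0.195 and 0.364), and was kept without pair 1 (0.0535). *Kcnf1* is a single-exon gene on chromosome 12 (17222101 to 17226889, minus strand).

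*Kcnip2* encodes a calcium-binding auxiliary subunit of the Kcnd channels, which carry the rapidly inactivating A-type current of dendrites. Its value was 11.39, 11.32, 11.36 and 11.33 in the eGFP libraries and 11.55, 11.62, 11.58 and 11.61 in the Rnf146 libraries. Each Rnf146 library was above each eGFP library, by 0.16 in pair 1 and by 0.21 to 0.30 in the others. The mean difference was 0.24 ± 0.07 (SD, n = 4 pairs; 95% interval 0.13 to 0.34; adjusted p = 0.0745, limma). Without pair 1 the adjusted p was 0.0487, and it was 0.329, 0.139 and 0.348 without pairs 2, 3 and 4. *Kcnip2* is also expressed in the striatum. The striatal list and *Kcnip2* were both highest in pair 2 and lowest in pair 1, at -0.11 for the list and 0.16 for *Kcnip2*. Pairs 3 and 4 stood in the opposite order, at 0.66 and 0.28 for the list and at 0.21 and 0.28 for *Kcnip2*. The part of these markers in the result was not tested.

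All 4 calls were lost when the mean of the striatal and septal markers was added to the model, with differences of -0.22 for *Kcnj9*, -0.30 for *Kcnh3*, -0.18 for *Kcnf1* and 0.17 for *Kcnip2* and adjusted p-values of 0.885, 0.805, 0.901 and 0.901 from limma. In that model 3 of all 15039 genes (0.0199%) were called, the differences of 25 members had the other sign, 6 members kept an unadjusted p under 0.05, and the septal list differed in the same direction in all 4 pairs, so the score and the group cannot be fully told apart with 4 pairs. With the oligodendrocyte markers in the model *Kcnh3* was called (adjusted p = 0.0685), together with *Kcnip3*, where 1.71% of all genes were called, and the other 3 were not, with adjusted p-values of 0.138 for *Kcnj9*, 0.305 for *Kcnf1* and 0.249 for *Kcnip2*.

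**Figure D2:**
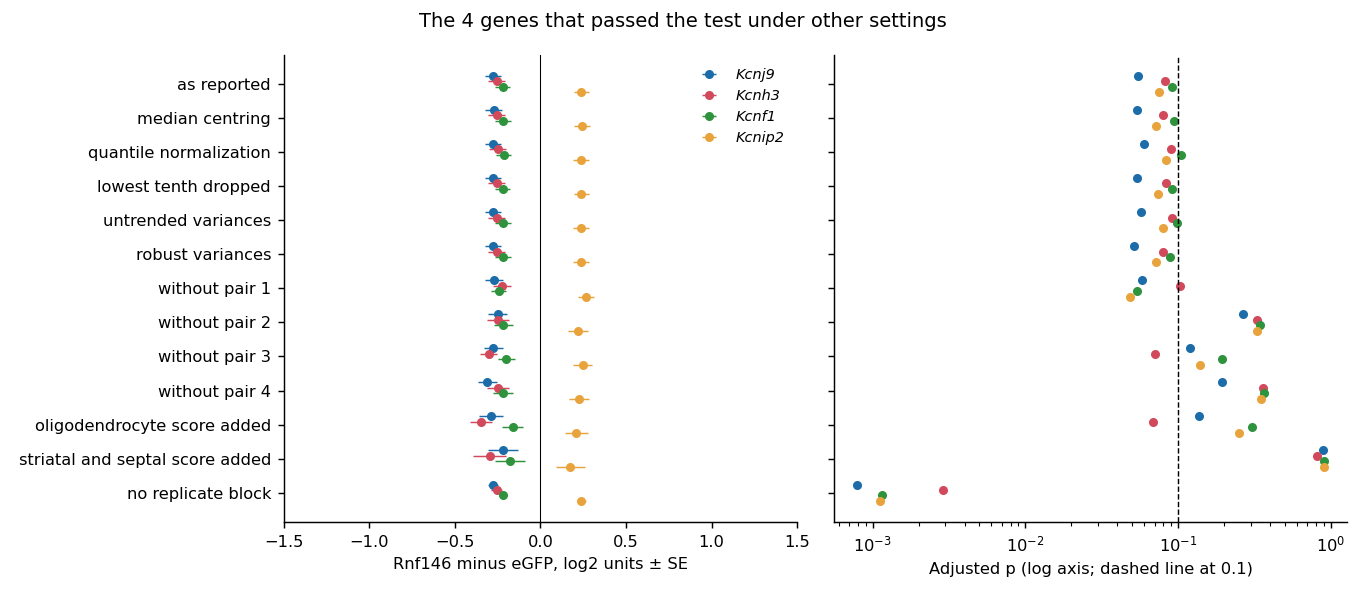
The difference ± SE (left) and the adjusted p on a log axis (right) of the 4 called genes under the reported test and 12 alternatives, 1 row each. The differences keep their sign in every row, whereas the adjusted p lies on both sides of the dashed line at 0.1, and *Kcnj9*, for example, reaches 0.885 with the striatal and septal score. Rows that change only the block, the variances or the genes tested cannot alter a difference.

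Across the voltage-gated pore subunits, 13 of 26 had a mean difference above 0 and 13 below, with a median of 0.00, and *Kcnh3* was the only one called. The Kcna subfamily, low-threshold channels of axons and terminals, had all 6 members above 0, from 0.02 for *Kcna3* to 0.30 for *Kcna4*, and 0 of the 6 were called by limma, with 2 at an unadjusted p under 0.05. *Kcna4*, which forms a rapidly inactivating channel, stood at 9.83, 9.53, 9.61 and 9.78 in the eGFP libraries and at 9.85, 10.15, 10.07 and 9.89 in the Rnf146 libraries. The groups did not overlap, but the differences of pairs 1 and 2, 0.02 and 0.62, were far apart, and the mean of 0.30 ± 0.28 (SD, n = 4 pairs) had an adjusted p of 0.245. Without pair 1 it was 0.40, with an adjusted p of 0.099 from limma, where 2.80% of all genes were called. Without pairs 2, 3 and 4 the adjusted p of *Kcna4* was 0.624, 0.456 and 0.406. The study, by its own test, lists *Kcna4* among the genes higher in Rnf146-overexpressing mice at its threshold of 0.1.

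The pairs of *Kcna4*, *Kcna5* and *Kcna1* followed the order of the striatal markers, with pair 1 lowest, then pairs 4, 3 and 2. *Kcna5* differed by 0.03, 0.50, 0.20 and 0.07 in pairs 1 to 4, and *Kcna1*, a subunit of axonal channels, by -0.15, 0.39, 0.26 and 0.08. In 8 of the 70 members (11.4%), and in 4.73% of all genes, the pairs stood in this order, *Kcng3*, *Kcnh4*, *Kcnj2* and *Kcnj6* among them. With the striatal and septal score in the model the difference of *Kcna4* was -0.048 in place of 0.30, with an adjusted p of 0.975. *Kcna2*, the main partner of *Kcna1* in axons, had a mean difference of 0.02 with a 95% interval of -0.10 to 0.14.

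Of the other voltage-gated subunits, Kcnc channels allow fast spiking. *Kcnc2*, known from fast-spiking interneurons, had pair differences of -0.18, -0.29, 0.04 and -0.22 and a mean of -0.17 ± 0.14 (adjusted p = 0.307, limma), and *Kcnc4*, below 0 in each pair, averaged -0.12 ± 0.11. *Kcnc1*, the best known partner of *Kcnc2*, had a mean of 0.02 ± 0.15. Like the excitatory neuron markers, *Kcnc2* was below 0 in pairs 1, 2 and 4 and slightly above it in pair 3. The interneuron list averaged 0.01, 0.15, 0.17 and 0.19 in pairs 1 to 4, and *Pvalb* of that list lay at -0.19, -0.29, 0.24 and 0.14. The part of either marker list in the *Kcnc2* result was not tested. *Kcnb2*, a delayed rectifier, averaged 0.01 ± 0.09.

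Kcnq subunits carry the M-current, which muscarinic receptors suppress. *Kcnq3* averaged 0.02 ± 0.08, with a 95% interval of -0.09 to 0.13, and *Kcnq5* averaged -0.01 ± 0.12. In the Kcnh subfamily, *Kcnh2* was higher in all 4 pairs, by 0.23, 0.16, 0.06 and 0.15, in the opposite direction to *Kcnh3*, with an adjusted p of 0.250 from limma. The other 5 Kcnh genes had means between -0.05 for *Kcnh6* and 0.13 for *Kcnh5*. The Kcnd subunits, the pores that *Kcnip2* serves, were at 0.06 ± 0.13 for *Kcnd2*, -0.10 ± 0.19 for *Kcnd3* and -0.07 ± 0.12 for *Kcnd1*, and 0 of the 3 had an unadjusted p under 0.05.

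**Figure D3:**
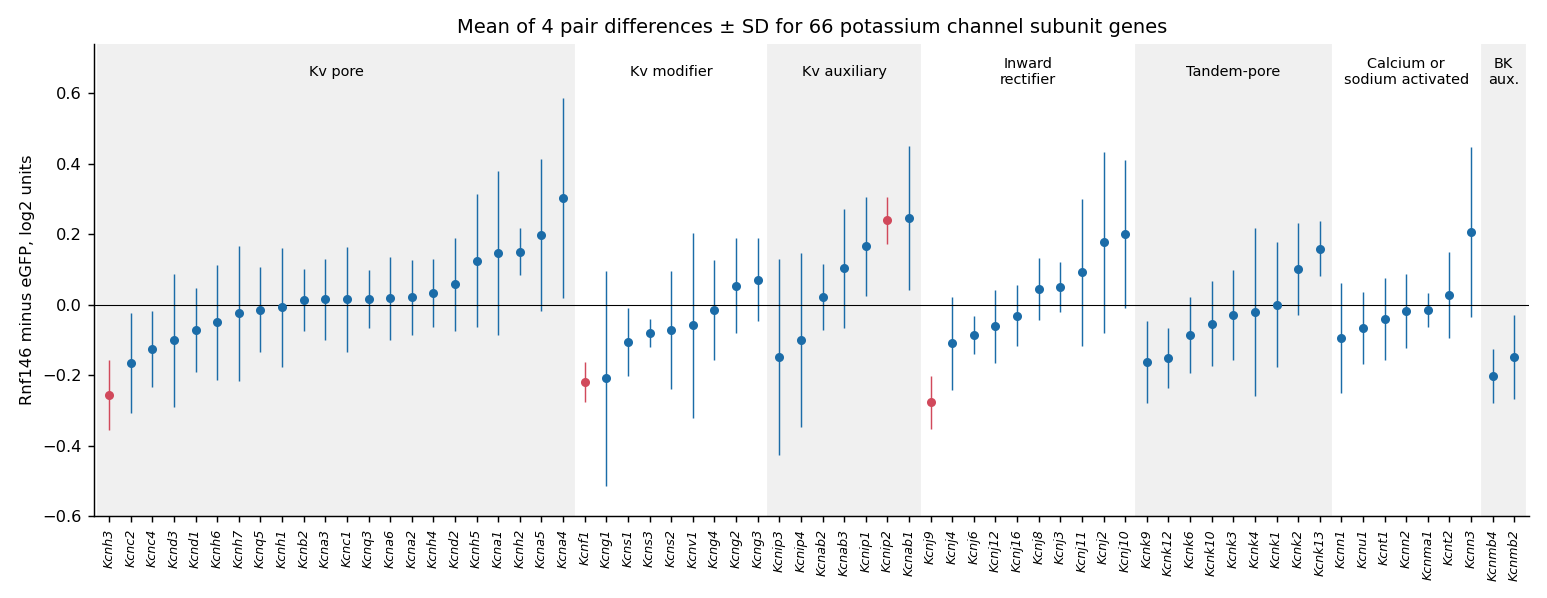
Mean difference, Rnf146 minus eGFP in log2 units, with its SD over 4 pairs for 66 of the 70 members, grouped by the role of the subunit and ordered by mean within a group; red points are the 4 called genes. The means run from -0.28 for *Kcnj9* to 0.30 for *Kcna4*, and the called genes are not those with the longest bars.

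Among the 9 silent subunits 7 had a mean below 0, with a median of -0.07. *Kcnf1* was the one called. *Kcng1* had nearly as low a mean, -0.21, but its pair differences were 0.04, 0.02, -0.61 and -0.28, so the spread of 0.30 (SD, n = 4 pairs) exceeded it. Leaving out pair 1 raised the median of the 9 genes to 0.01, while their medians within pairs 1 to 4 were -0.12, 0.02, -0.04 and -0.04. *Kcns3*, below 0 in each pair, had a mean of -0.08 ± 0.04 (adjusted p = 0.489, limma). *Kcns1* and *Kcns2*, its relatives, averaged -0.11 ± 0.10 and -0.07 ± 0.17, and *Kcnv1*, found mainly in the brain, -0.06 ± 0.26, with -0.30 in pair 1 and 0.30 in pair 3. The other Kcng genes had means of 0.05 for *Kcng2*, 0.07 for *Kcng3* and -0.01 for *Kcng4*.

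The 7 auxiliary subunits of voltage-gated channels had a median of 0.10, and 5 of them lay above 0. Besides *Kcnip2*, *Kcnab1*, which gives Kcna channels inactivation, was higher in all 4 pairs, by 0.16, 0.52, 0.26 and 0.04, on average by 0.25 ± 0.20 (SD, n = 4 pairs; adjusted p = 0.223, limma). Pair 2 was the highest, as for the striatal markers, but pair 4 was the lowest, whereas those markers were lowest in pair 1. With the striatal and septal score in the model the difference of *Kcnab1* was 0.0069 (adjusted p = 0.992, limma), and the part of these markers in the result was not tested. *Kcnip1*, an interneuron-enriched relative of *Kcnip2*, was also higher in all 4 pairs, by 0.31, 0.09, 0.01 and 0.26, with a mean of 0.17 ± 0.14. The interneuron markers *Gad1*, *Gad2* and *Slc32a1* were higher in all 4 pairs too, while *Lhx6*, *Npy*, *Pvalb*, *Sst* and *Vip* had means below 0. The part of these markers in the *Kcnip1* result was not tested. The 4 Kcnip genes did not share a direction. *Kcnip3* lay at -0.53 in pair 1 and at 0.13 in pair 3, *Kcnip4* at -0.29 in pair 2 and at 0.26 in pair 1, so their means of -0.15 and -0.10 lay within the spread between pairs. *Kcnab2*, the β-subunit gene with a mean of 0.02, had a 95% interval of -0.09 to 0.14, and *Kcnab3* ran from -0.07 to 0.28 with a mean of 0.10.

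**Figure D4:**
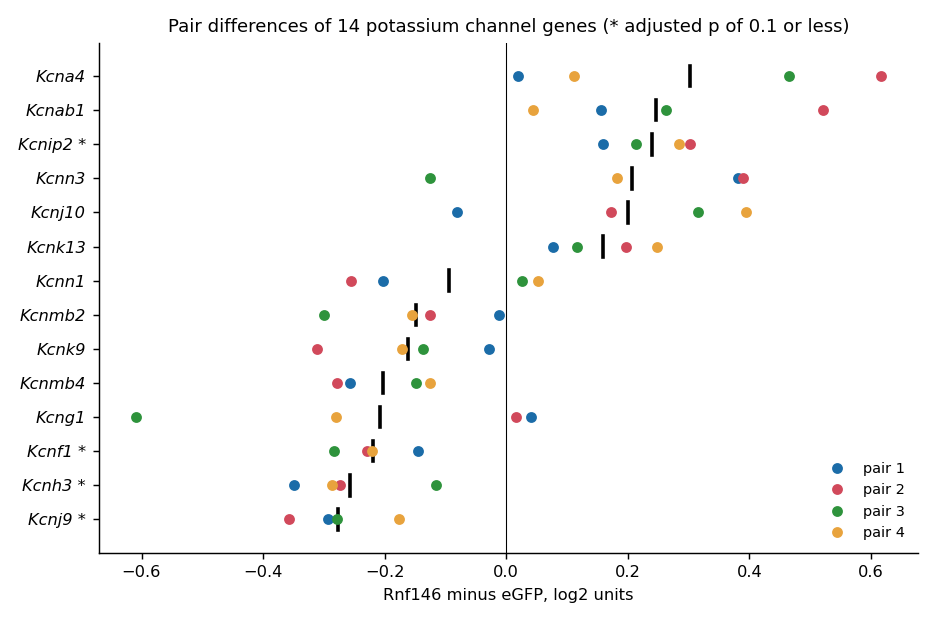
Pair differences of the 14 potassium channel genes named by a fixed rule, 1 point per pair coloured by pair number and a black bar for the mean, in log2 units; genes marked with an asterisk were called. The points of *Kcna4* stretch from 0.02 to 0.62 and those of *Kcng1* from -0.61 to 0.04, while those of *Kcnf1* lie between -0.28 and -0.15.

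Of the 10 inward rectifiers, 5 lay above and 5 below 0, and *Kcnj9* was the one called. *Kcnj10*, the glial channel that clears potassium from around neurons, ranged from 11.72 to 11.96 in the eGFP libraries and from 11.88 to 12.11 in the Rnf146 libraries, with pair differences of -0.08, 0.17, 0.32 and 0.39. The groups overlapped, since pair 1 had the opposite direction, and the mean of 0.20 ± 0.21 had an adjusted p of 0.325. Without pair 1 it was 0.29, with an adjusted p of 0.055 from limma, where 2.80% of all genes were called. Without pairs 2, 3 and 4 the adjusted p of *Kcnj10* was 0.611, 0.546 and 0.650. Oligodendrocytes and astrocytes both express *Kcnj10*. The oligodendrocyte and the striatal lists were also below 0 in pair 1 alone, and the astrocyte list lay between -0.07 and 0.06. The difference of *Kcnj10* was 0.016 with the oligodendrocyte score in the model (adjusted p = 0.956, limma) and 0.12 with the striatal and septal score (adjusted p = 0.960), and which cells its signal came from was not tested.

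*Kcnj16*, whose product joins that of *Kcnj10* in glia, had pair differences of 0.05, -0.15, 0.02 and -0.04. *Kcnj2*, a strong rectifier that also holds the resting potential of striatal neurons, had pair differences of -0.20, 0.34, 0.33 and 0.23. Its mean of 0.18 ± 0.26 was smaller than the spread. It was called without pair 1 (adjusted p = 0.0506, limma), as were 2.80% of all genes. Over the fits with 1 pair left out the adjusted p of *Kcnj2* reached 0.800. With the striatal and septal score in the model the difference of *Kcnj2* was -0.09, and with the oligodendrocyte score -0.06. The other strong rectifiers, *Kcnj4* and *Kcnj12*, had means of -0.11 and -0.06. The ATP-sensitive pore genes *Kcnj11*, found in neurons, and *Kcnj8*, found in mural cells of vessels, had means of 0.09 ± 0.21 and 0.05 ± 0.09.

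Of the 9 tandem-pore genes, 0 were called by limma, and 3 had an unadjusted p under 0.05, namely *Kcnk13*, *Kcnk12* and *Kcnk9*. *Kcnk13*, the main tandem-pore channel of microglia, was higher in all 4 pairs, by 0.08, 0.20, 0.12 and 0.25 (mean 0.16 ± 0.08, SD, n = 4 pairs; adjusted p = 0.223, limma), while the microglial markers were below 0 in all 4 pairs, at -0.18, -0.28, -0.09 and -0.14. Its closest relative *Kcnk12* lay below 0 in each pair, at -0.07, -0.26, -0.11 and -0.17 (mean -0.15 ± 0.09, adjusted p = 0.250). *Kcnk9*, an acid-sensitive leak channel of neurons, differed by -0.03, -0.31, -0.14 and -0.17, with a mean of -0.16 ± 0.12 (adjusted p = 0.274). The related *Kcnk3* averaged -0.03 ± 0.13. The mechanosensitive channels *Kcnk2*, *Kcnk4* and *Kcnk10* had means of 0.10, -0.02 and -0.05, each within its spread, *Kcnk6* one of -0.09 ± 0.11, and *Kcnk1* averaged 0.00 with a 95% interval of -0.15 to 0.16.

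**Figure D5:**
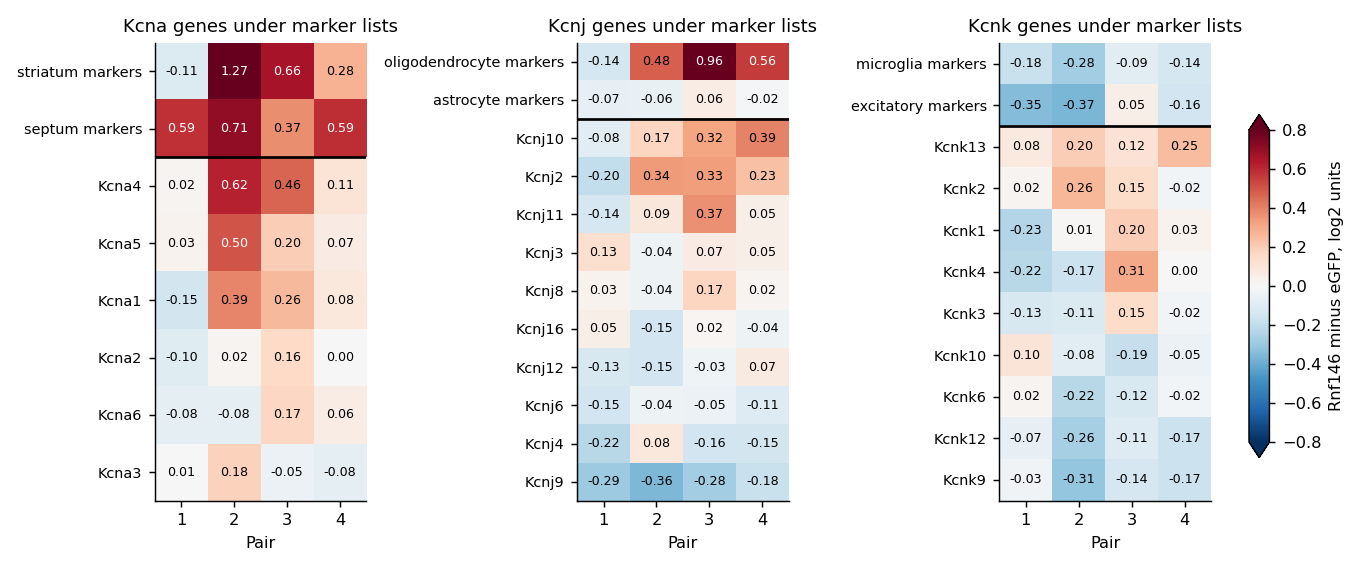
Pair differences in log2 units, printed in each cell and coloured from blue (lower in Rnf146 libraries) to red (higher), for the Kcna, Kcnj and Kcnk genes below the means of 2 marker lists each; columns are the 4 pairs, and values beyond 0.8 in size share the end colour. Pair 2 holds the highest values of *Kcna4* (0.62), *Kcna5* (0.50) and the striatal markers (1.27), and pair 1 is below 0 for *Kcnj10* and for the oligodendrocyte markers.

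Of the calcium-activated BK channel, neither the pore gene nor the 2 Kcnmb genes passed the test. *Kcnma1*, which encodes the pore, differed by -0.02, -0.04, 0.05 and -0.04, with a 95% interval of -0.12 to 0.09. *Kcnmb4*, the auxiliary subunit of neuronal BK channels, stood at 10.96, 10.98, 10.91 and 10.90 in the eGFP libraries and at 10.71, 10.70, 10.76 and 10.77 in the Rnf146 libraries. The groups did not overlap, and the mean of -0.20 ± 0.08 (SD, n = 4 pairs) had an adjusted p of 0.136, the lowest among members that were not called. *Kcnmb2* was also below 0 in each pair, at -0.01, -0.12, -0.30 and -0.16, with an adjusted p of 0.309.

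The small-conductance genes, which sustain the afterhyperpolarization, did not share a direction. *Kcnn3* had pair differences of 0.38, 0.39, -0.13 and 0.18 and a mean of 0.21 ± 0.24 (adjusted p = 0.364, limma), *Kcnn1* a mean of -0.09 ± 0.16 and *Kcnn2* one of -0.02 ± 0.11. The sodium-activated genes *Kcnt1* and *Kcnt2* averaged -0.04 ± 0.12 and 0.03 ± 0.12, and *Kcnu1*, best known from sperm, -0.07 ± 0.10.

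Partner proteins that the naming rule does not match were listed separately, and 18 of 22 had values. Of these, 13 lay above 0, with a median of 0.05, and 0 were called by limma, 1 at an unadjusted p under 0.05. That gene was *Lrrc55*, a leucine-rich auxiliary subunit of the BK channel, higher in all 4 pairs by 0.07, 0.30, 0.16 and 0.34, on average by 0.22 ± 0.12 (SD, n = 4 pairs), where limma gave an adjusted p of 0.183. Without pair 1 its adjusted p was 0.087. *Dpp6*, an auxiliary subunit of the Kcnd channels like *Kcnip2*, averaged 0.05 ± 0.09, and the related *Dpp10* 0.00 ± 0.28, with 0.41 in pair 1 and -0.13 to -0.15 in the other 3.

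The pairs differed in how far the members lay from 0. In pair 1, 23 of 70 members were higher in the Rnf146 library, in pair 2 33, in pair 3 41 and in pair 4 30, while 49.2% to 51.1% of all genes were higher in each pair. The median size of a member's difference was 0.127, 0.149, 0.135 and 0.0715 in pairs 1 to 4, against 0.0913, 0.0849, 0.0798 and 0.0726 over all genes. Members were thus further from 0 than the table as a whole in pairs 1, 2 and 3, but not in pair 4. The lowest deposited value was 7.86, and how the scale treats weakly expressed genes is not given in the sources used here. No value per transcript length was available, so levels were not compared between genes. In 8 members (11.4%), among them *Kcna6*, *Kcnc1*, *Kcnip3*, *Kcnk1*, *Kcnk3*, *Kcnk4* and *Kcnv1*, the 4 pairs stood in the order of the oligodendrocyte markers, as did those of 5.90% of all genes.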

How the data were processed

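RNA sequencing libraries of the PFC were grouped, and numbered as replicates 1 to 4, by the sample labels. The authors used Cutadapt for trimming and Salmon 1.9.0 for quantification against GENCODE vM30 (GRCm39), and DESeq2 is listed in the submitters' processing notes without a role. The deposited values for 15039 genes, described as normalized counts, are log2 values between 7.86 and 18.8. They had been centred within same-numbered pairs (largest spread of a gene's pair sums 1.4e-13), which fixes the correlation of same-numbered libraries' deviations at -1. The transformation and the centring are not given in the sources used here, and depth is unknown.

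No count test or pseudocount was used. The whole table was fitted with limma 3.58.1 in R 4.3.3 (trended variances), with the replicate number as a block because a gene holds 4 independent differences. The sources used here do not say what the mice of a pair shared, so p-values measure the spread between these pairs. An exact test that flips the signs of 4 pair differences reaches no two-sided p below 0.125 and was not used. Members, roles, marker lists and partner genes were chosen with earlier results of these data known. Named genes are *Rnf146*, *Kcna4*, members called or with an unadjusted p of 0.01 or less, in each role the 2 with the largest mean difference in size and the 1 with the smallest p, the 3 highest and 3 lowest members, and the partner gene with the largest difference. Further members were named, after their values were seen, to account for the subfamilies. The values of 4 members are counted in the totals and not reported here by name. Positions and coding sequences came from GENCODE vM39 (GRCm39), where all 70 members were found, using Python 3.11.15 with pandas 2.3.3 and numpy 2.4.6.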

Additional observations from a re-analysis of the deposited data

Results flagged for a closer look

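In 4 of 110 sets of 4 pair differences examined, covering the genes reported by name, the marker lists and the medians by role, 1 pair stood apart from the other 3, where chance alone sets apart about 1 in 20 groups. *Kcnh6*, a voltage-gated pore subunit, lay at -0.29 in pair 3, while the other 3 ranged from 0.01 to 0.06, a gap of 0.8435 of its whole range. Among the partner genes, *Dpp10*, at 0.41 in pair 1 and -0.13 to -0.15 in the others, had a gap of 0.9727, and *Cntn2*, which encodes an axonal adhesion protein that clusters Kcna channels, at -0.36 in pair 1 and 0.25 to 0.31 in the others, had a gap of 0.9099. The choroid plexus list, of which 2 of 5 genes had values, was at 0.32, 0.23, 0.21 and 0.23, with a gap of 0.8495 and pair 1 apart.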

How the results depend on the processing

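The 4 members were called again under median centring, without the tenth of genes with the lowest means (2 members dropped) and with untrended or robust variances, and 3 of them under quantile normalization. Without the replicate block 24 members, 2 partner genes and 3226 of all genes were called. With the striatal and septal score the counts were 0 members and 3 genes (6 members at an unadjusted p under 0.05, limma), and with the oligodendrocyte score 2 members. At an adjusted p of 0.05 they were 0 members and 80 genes. Leaving out 1 pair gave 0 to 6 members, 0 to 2 partner genes and 14 to 421 of all genes, from 3 pairs in place of 4. The median of the auxiliary subunits of voltage-gated channels then ran from 0.044 to 0.14 and that of the silent subunits from -0.082 to 0.0097. Of 192 values of 16 named genes under 12 alternatives, 190 kept their direction. Leaving out the block or the tenth of genes with the lowest means and using untrended or robust variances cannot alter a difference. The values under those settings therefore kept their direction by construction. These genes were named largely for the size of their difference. Of all 70 members, 20 had the other sign with the oligodendrocyte score, 25 with the striatal and septal score, and 5 to 11 when 1 pair was left out. The exceptions among the named genes were *Kcna4* at -0.048 with the striatal and septal score and *Kcng1* at 0.055 with the oligodendrocyte score, and the cause was not tested. The numbers of reads are not part of the values, so what depth limits could not be stated.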
